A study of Rattus norvegicus with 12 samples.

Results

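A set of 84 protein-coding genes was followed in the urinary bladder of rats whose spinal cord had been cut. Their RNA was above the uninjured level at day 7 after the cut and below it at day 28. The 84 genes were picked by their own values. A gene entered when its mean was at least 1 CPM (counts-per-million, read counts scaled to the library's total) in controls, when its day 7 mean was at least 1.4 times and its day 28 mean at most 0.71 times the control mean, and when its lowest day 7 library was above its highest day 28 library. Symbols of several families (Col, Kcn, Wnt, Sfrp, Fzd, Hox) and a few single genes were left out by name. Of 13353 protein-coding genes at or above 1 CPM in controls and not left out by name, 84 (0.629%) met all of this.

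The study used female Wistar rats, an outbred laboratory strain, aged 10 to 12 weeks. Groups were 3 libraries of normal control bladder, and 3 each of bladder taken 7, 14 and 28 days after the whole cord was cut at thoracic segment 10, per the labels, or at T9 to T10 in the series' design text. No sham operation and no sampling day is given for the controls, so the operation itself cannot be told apart from the cord lesion. The labels describe no separate animals behind the replicate numbers, and p-values here measure the spread between these libraries. Total RNA of bladder tissue was depleted of ribosomal RNA and sequenced as single reads of 50 bases, and each library held 26275314 to 30747936 counts over genes. In such bulk tissue fewer cells of a type and less RNA per cell cannot be told apart.

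Cutting the cord above the lumbosacral segments removes the brain's control of voiding. The bladder first fails to contract and is overstretched, later develops reflex contractions, and its wall thickens while muscle, connective tissue and surface cells are remodelled. Secreted matrix proteins are folded, hydroxylated and glycosylated in the endoplasmic reticulum and Golgi before they are laid down between cells. Red cell genes are transcribed in red cell precursors, and young red cells in the blood still carry their RNA.

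Values of control, day 7 and day 28 libraries chose these genes, and they are given below as description without a test. At day 7, 2068 of the 13353 genes (15.5%) reached 1.4 times control, and at day 28, 1625 (12.2%) were at or below 0.71 times control. Both held for 99 genes, and 84 of them also had separate day 7 and day 28 libraries. Of the 2068 genes raised at day 7, 1169 were still at least 1.4 times control at day 28. The opposite order, at most 0.71 times control at day 7 and at least 1.4 times at day 28 with separate libraries, was met by 94 genes. The 84 genes were thus a small share of those raised at day 7, and about as many genes took the opposite order. Over the 84 genes the median ratio to control was 1.75 at day 7, 0.699 at day 14 and 0.608 at day 28. Just inside the day 7 threshold were Fbxl16 at 1.42, B3gnt9 at 1.43 and Mras at 1.43 times control, and just outside it were Scarf2 at 1.37, Cdr2l at 1.36 and Rab26 at 1.36. Just inside the day 28 threshold were Mras, H2afy2 and Chst10, each at 0.709 times control, and just outside it Gpc1 at 0.713, Tnnc1 at 0.714 and Gpt2 at 0.716. All 3 day 7 libraries lay above all 3 controls for 50 of the 84 genes (18.5% of the 17687 genes tested did so), and all 3 day 28 libraries lay below them for 48 (17.8% of the genes tested). Libraries overlapped the controls at both days for 18 genes, at day 7 alone for 16 and at day 28 alone for 18, and these genes passed on their means. On plain CPM the median over all genes tested was -0.13 on the log2 scale at day 7 relative to control, and with TMM-scaled library sizes it was -0.01.

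**Figure D1:**
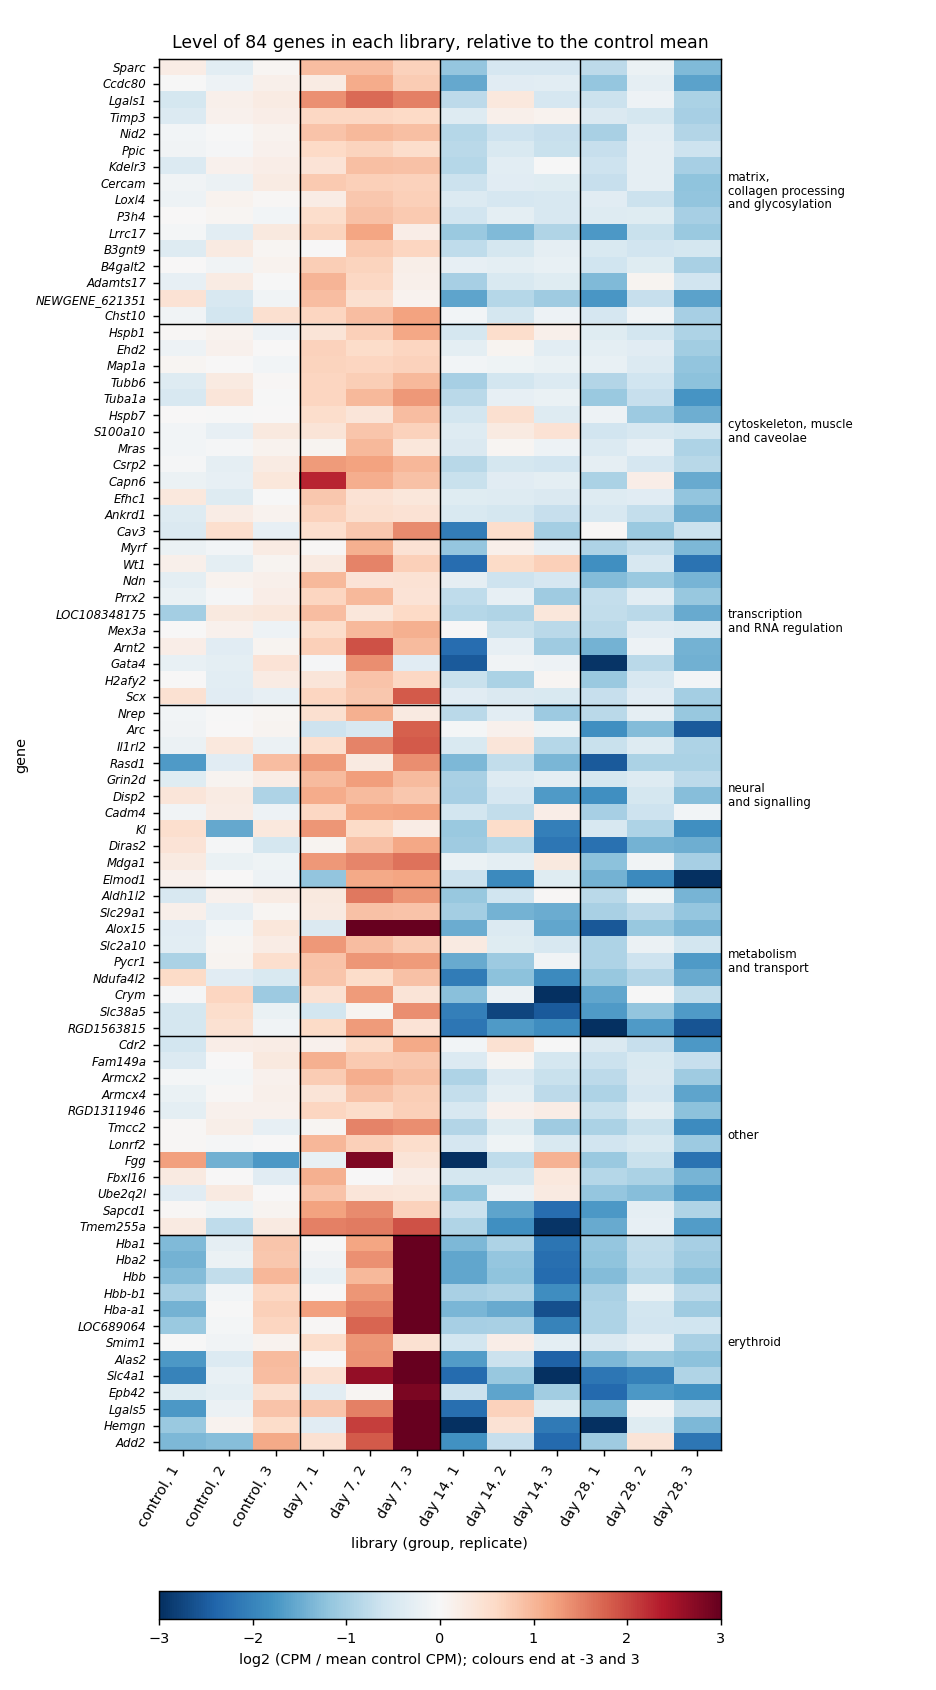
Each row is 1 of the 84 genes and each column 1 of the 12 libraries, ordered control, day 7, day 14 and day 28. Colour is log2 of CPM over the control mean, and genes are grouped by role. Day 14 columns are mostly blue; day 14 took no part in the choice, but the controls that set the colour scale did. The erythroid rows are darkest red in day 7 replicate 3.

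The day 14 libraries took no part in choosing the genes, so day 14 against control was the comparison open to a test, with the reservation that the same 3 control libraries had served in the choice. It was fitted over all 17687 genes tested, and all 84 genes were among them. The genes lay mostly below control at day 14. Their log2 fold change was negative for 80 of 84 (49.6% of all genes tested), and its median was -0.51, against 0.00 over all genes tested. By edgeR's quasi-likelihood test 5 of the 84 fell (0.995% of genes tested fell) and 0 rose (1.45% of genes tested rose, and 2.45% were called in either direction). At an unadjusted p under 0.05, 24 were lower (7.97% of genes tested) and 0 higher, and DESeq2 called 12 lower (2.59% of its genes) and 0 higher. All 3 day 14 libraries lay below all 3 controls for 33 genes (12.5% of genes tested) and above them for 0 (12.1%). The direction was shared by nearly all of the genes, while the size of the change at single genes was mostly within the spread between libraries. The 5 calls depended on every library: 1, 3 and 1 were called without day 14 replicate 1, 2 and 3, and 0 without any 1 control, when all genes called lower also dropped to 22, 10 and 11. The median stayed negative throughout, between -0.65 and -0.39.

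**Figure D2:**
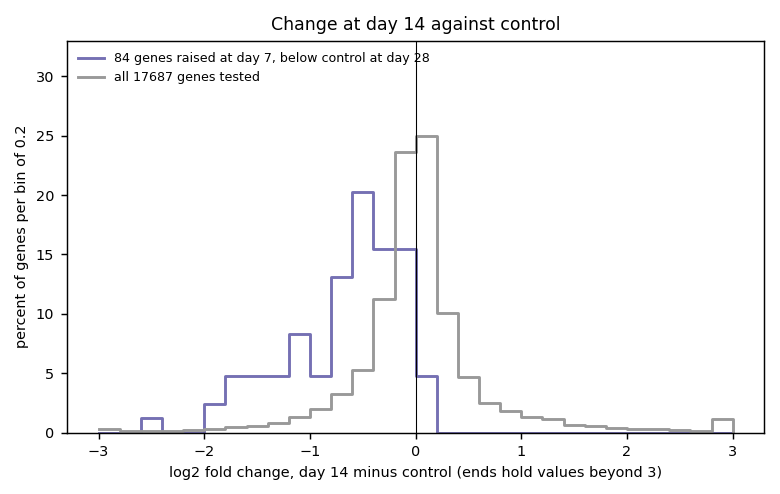
The horizontal axis is the log2 fold change of day 14 minus control from edgeR and the vertical axis the percent of genes per bin of 0.2. The 84 genes (purple) centre at -0.51 and all 17687 genes tested (grey) at 0.00.

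Mean levels at day 14 were between those of control and day 28 for 58 genes, at or below the day 28 mean for 22, and above control for 4 (Hspb1, S100a10, Wt1 and Cdr2). For 69 genes all 3 day 14 libraries lay below all 3 day 7 libraries (13.8% of genes tested). Since high day 7 values chose the genes, nothing is read from that count. Day 14 and day 28 libraries overlapped for 72 genes, while day 14 was the higher for 9 (8.38% of genes tested) and the lower for 3 (13.7%). Day 28 values were likewise part of the choice.

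The 5 genes that fell at day 14 came from the matrix role group and from the metabolism and transport role group. Slc29a1 encodes a carrier that moves nucleosides such as adenosine across the cell membrane. It had 6.93, 5.23 and 4.98 CPM at day 14 and 15.7, 11.8 and 14.7 CPM in controls, with no overlap, and its log2 fold change was -1.31 ± 0.20 (SE, n = 3 each, edgeR adjusted p = 0.0166). At day 7 it had 16.9, 26 and 25.5 CPM and at day 28 7.12, 8.11 and 6.3 CPM. Day 14 and day 28 libraries of Slc29a1 thus stood together at less than the lowest control. Slc38a5, a carrier of glutamine and related amino acids, had 0.343, 0.209 and 0.247 CPM at day 14 and 0.985, 2.03 and 1.24 CPM in controls, again without overlap, and its log2 fold change was -2.41 ± 0.55 (SE, n = 3 each, edgeR adjusted p = 0.0463, and 0.071 to 0.163 with each library left out). Its day 7 libraries, at 0.973, 1.5 and 3.74 CPM, overlapped the controls, and 1 of them set the day 7 mean, while day 28 libraries held 0.441, 0.624 and 0.441 CPM. Ndufa4l2, a mitochondrial protein of the respiratory chain that responds to low oxygen and is abundant in pericytes, had 0.99, 1.81 and 1.13 CPM at day 14 and 6.34, 3.33 and 3.07 CPM in controls. Its log2 fold change was -1.69 ± 0.34 (SE, n = 3 each, edgeR adjusted p = 0.0322, and 0.0576 with day 14 and control libraries fitted alone). At day 7 Ndufa4l2 had 7.61, 6.25 and 7.84 CPM and at day 28 1.93, 2.32 and 1.49 CPM, and the day 14 and day 28 libraries overlapped.

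The other genes that fell at day 14 were Nid2 and Ppic. Nid2 encodes nidogen-2, which links laminin to type IV collagen in basement membranes. It held 32.9, 38.8 and 36.8 CPM at day 14 and 56.6, 59.1 and 63.9 CPM in controls, and its log2 fold change was -0.73 ± 0.15 (SE, n = 3 each, edgeR adjusted p = 0.0371). Day 7 libraries of Nid2 were at 108, 117 and 112 CPM, a tight group, and day 28 libraries at 30.3, 48.3 and 32.6 CPM. Ppic is cyclophilin C, an enzyme that turns proline bonds during protein folding. Ppic was measured at 33.6, 42.8 and 37.2 CPM at day 14 and 54.8, 57.9 and 64.2 CPM in controls, and its log2 fold change was -0.64 ± 0.13 (SE, n = 3 each, edgeR adjusted p = 0.0299). It had 88.7, 93.6 and 85.3 CPM at day 7 and 36.7, 49.1 and 38.6 CPM at day 28. In both genes the 4 groups formed 3 levels, with day 7 highest, control between, and day 14 and day 28 overlapping each other at the bottom.

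The largest role group, of 16 genes, held secreted matrix proteins and the enzymes that modify collagen and sugars. All 16 had a negative log2 fold change at day 14 (49.6% of genes tested). By edgeR 2 fell (Nid2 and Ppic, with 0.995% of genes tested), 8 were lower at an unadjusted p under 0.05 (7.97%), and DESeq2 called 4 lower (2.59%). In 11 all day 14 libraries lay below all controls (12.5%). Sparc, a secreted glycoprotein that binds collagen, had 3762, 2566 and 3323 CPM in controls, 6091, 6074 and 5208 CPM at day 7, 1429, 2266 and 2255 CPM at day 14 and 1852, 2856 and 1289.5 CPM at day 28. Every day 7 library exceeded every other library, and day 28 replicate 2 lay among the controls. Read per transcript length, Sparc was also the most abundant of the 84 genes in controls, at 3052 ± 605 transcripts-per-million units (TPM), and it had 5505 ± 711 at day 7, 1926 ± 469 at day 14 and 1898 ± 771 at day 28 (mean ± SD, n = 3 each). Its day 14 to control log2 fold change was -0.70 ± 0.28 (SE, edgeR adjusted p = 0.213), which did not pass.

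Ccdc80, a matrix-bound secreted protein, had 868, 785 and 979.8 CPM in controls, 1046, 1898 and 1501 CPM at day 7, 304, 690.0 and 709.7 CPM at day 14 and 392, 731 and 287 CPM at day 28. Day 14 and day 28 each had libraries close to the lowest control and others far below it. Lgals1, or galectin-1, a lectin that binds galactosides on cell surfaces and matrix, showed the steepest day 7 level of the group at 2.9 times control, with 698, 880.5 and 773 CPM at day 7 and 187, 301 and 322 CPM in controls. Its later libraries, 158, 335 and 192 CPM at day 14 and 173, 245 and 139 at day 28, overlapped the controls. Timp3, an inhibitor of metalloproteinases that stays bound to the matrix, had 179, 263 and 278 CPM in controls, 372, 371 and 364 CPM at day 7, 183, 268 and 257 CPM at day 14 and 177, 165 and 120.2 CPM at day 28. At day 14 it matched the control range, and only its day 28 libraries lay below all controls.

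Among enzymes and chaperones of collagen, P3h4, a partner of collagen lysine hydroxylation in the endoplasmic reticulum, had 22.1, 23 and 20.6 CPM in controls, 31.8, 40.0 and 38 CPM at day 7, 14.8, 17.8 and 15.7 CPM at day 14 and 16.7, 16.9 and 10.9 CPM at day 28. Loxl4, a lysyl oxidase that cross-links collagen and elastin, had 33.5, 39.9 and 37.7 CPM in controls, 43.5, 64.5 and 61.2 CPM at day 7, 27.8, 26.1 and 26.5 CPM at day 14 and 29.4, 23.7 and 16.4 CPM at day 28. In both, day 14 and day 28 libraries all lay under the lowest control. Kdelr3, a receptor that returns escaped proteins to the endoplasmic reticulum, had 36, 51.7 and 55.1 CPM in controls, 62.9, 88.3 and 86.9 CPM at day 7, 26.2, 38.2 and 47.4 CPM at day 14 and 30.9, 39.4 and 23.9 CPM at day 28. Cercam, a relative of the collagen galactosyltransferases, had 39, 36.9 and 49.4 CPM in controls, 72.6, 68.5 and 67.1 CPM at day 7, 26.9, 33.1 and 32.6 CPM at day 14 and 25.9, 34.7 and 18 CPM at day 28. Day 14 of Kdelr3 overlapped the controls and that of Cercam did not. Pycr1, which completes proline synthesis and was counted with metabolism, had 3.17, 6.47 and 8.77 CPM in controls, 11.1, 15.3 and 14.9 CPM at day 7, 2.17, 2.9 and 5.68 CPM at day 14 and 3.22, 4.02 and 1.9 CPM at day 28. Its highest and lowest control libraries differed by more than the means of control and day 14.

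Of the lower-level matrix genes, Lrrc17, a secreted leucine-rich repeat protein, had 17.8, 14.9 and 22.9 CPM in controls, 29.5, 42.1 and 21.2 CPM at day 7, 8.6, 7.36 and 9.99 CPM at day 14 and 5.63, 11.7 and 8.57 CPM at day 28. Its later libraries were all under its lowest control, with a day 14 log2 fold change of -1.10 ± 0.29 (SE, n = 3 each, edgeR adjusted p = 0.0678), and DESeq2 called it lower. Adamts17, a secreted metalloproteinase, had 6.76, 9.5 and 7.97 CPM in controls, 16.4, 12.4 and 9.01 CPM at day 7, 4.03, 5.9 and 6.28 CPM at day 14 and 3.22, 8.49 and 5.46 CPM at day 28. At day 28 replicate 2 it lay among the controls. Sugar-modifying enzymes were present at modest levels. B3gnt9, which adds N-acetylglucosamine, had 13.8, 21.7 and 18.9 CPM in controls, 18.2, 31.2 and 28.1 CPM at day 7, 10.6, 12.5 and 15.1 CPM at day 14 and 13.2, 12.2 and 12.6 CPM at day 28. Replicate 1 of the day 7 libraries lay inside the control range. B4galt2, a galactosyltransferase, had day 7 libraries at 23.2, 22.3 and 15.7 CPM and controls at 14, 13.1 and 14.9 CPM. Chst10, which sulfates the HNK-1 sugar of neural adhesion proteins, had 2.01, 1.48 and 3.03 CPM in controls, 3.41, 4.12 and 4.98 CPM at day 7, 2.06, 1.5 and 1.94 CPM at day 14 and 1.52, 2.01 and 1.08 CPM at day 28. Its day 14 change, -0.25 ± 0.32 on the log2 scale (SE, edgeR adjusted p = 0.756), turned to 0.067 without control replicate 3. The 16th gene has a clone ID and is described in the authors' table as type I collagen alpha 2, so that its reads may be shared with Col1a2.

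Names removed 7 genes that met every numerical condition. They were Col1a1, Col1a2, Col3a1, Col6a3, Col15a1, Col27a1 and Tnc, the fibrillar and other collagens and tenascin-C. Mean Col1a1 was 10436 CPM in controls, 17814 CPM at day 7, 4778 CPM at day 14 and 4822 CPM at day 28, and mean Col3a1 was 9656, 15205, 5549 and 5522 CPM in the same order. Like the matrix members of the set, these genes were above control at day 7 and below it at day 28, as the rule required.

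**Figure D3:**
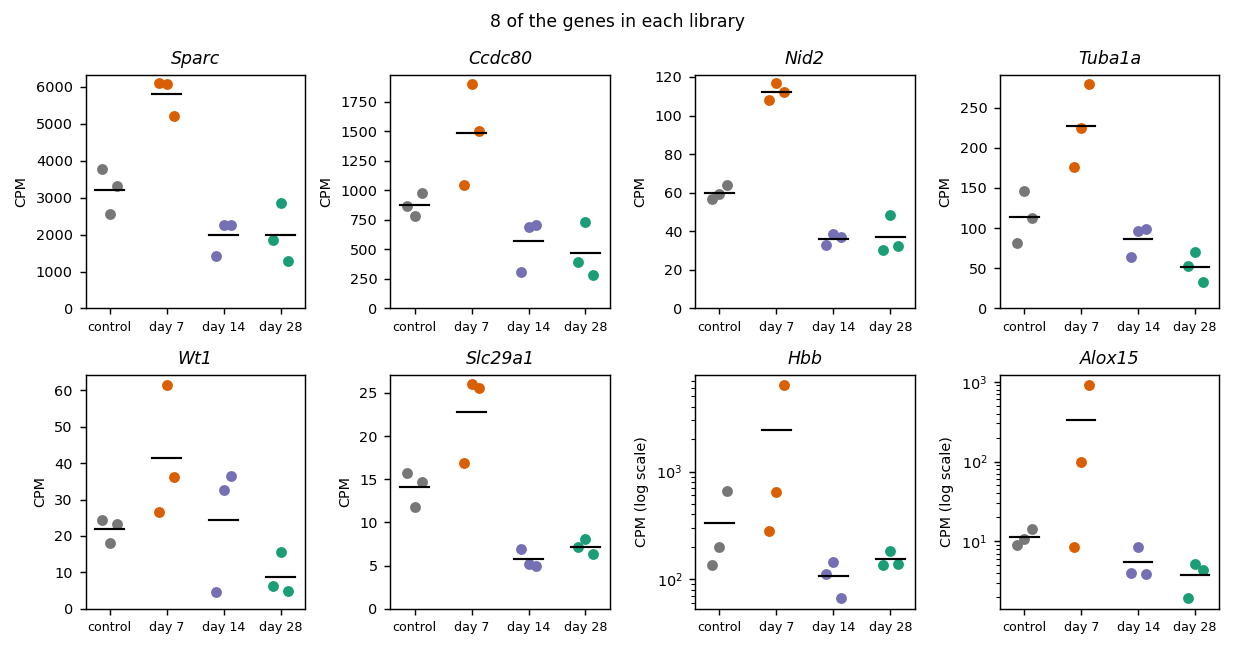
Points are CPM in single libraries and bars the mean of 3, for 8 of the genes, on linear axes from 0 except for Hbb and Alox15, whose axes are logarithmic. Nid2 and Slc29a1 show day 14 and day 28 libraries under the lowest control, and Hbb and Alox15 show 1 day 7 library far above the others.

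Lists of related genes, drawn up with earlier results of these data known, gave a mixed picture at day 14. Of 57 tested matrix glycoproteins and proteoglycans 4 rose (1.45% of genes tested) and 4 fell (0.995%) by edgeR, and Nid2 was one of those that fell. At an unadjusted p under 0.05, 9 were higher and 10 lower (7.97% of genes tested were lower). DESeq2 called 6 higher and 7 lower (2.59% of its genes were lower). Spp1, or osteopontin, rose by 4.45 ± 0.87 on the log2 scale (SE, n = 3 each, edgeR adjusted p = 0.0288), and Spon2 fell by 1.78 ± 0.23 (SE, n = 3 each, edgeR adjusted p = 0.00804). At day 7, 25 of the 51 listed genes at 1 CPM or more in controls, and not left out by name, were at least 1.4 times control (15.5% of the 13353 genes). At day 28, 15 of these 51 were at or below 0.71 times control (12.2%). Tnc and Ogn are on the list but were left out of both counts by name. Tnc met both conditions, with means of 249 CPM in controls, 1882 CPM at day 7 and 170 CPM at day 28. Of 45 matrix proteases and inhibitors 1 rose and 0 fell by edgeR, against 11 higher and 5 lower at an unadjusted p under 0.05, and 8 higher and 1 lower by DESeq2. Of 30 fibroblast and mesenchyme genes 1 rose (Cthrc1) and 1 fell (Lum) by edgeR, against 4 higher and 7 lower at an unadjusted p under 0.05, and 2 higher and 5 lower by DESeq2. Of 25 elastic fibre genes 0 rose and 0 fell by edgeR, against 4 higher and 7 lower at an unadjusted p under 0.05, and 2 higher and 3 lower by DESeq2. The shares over all genes given for the first list apply to the others too. By edgeR the matrix glycoprotein and the fibroblast lists thus had calls in both directions at day 14, and the protease and elastic fibre lists did not. By DESeq2 each of these lists had calls in both directions. Whether these counts differ from the shares over all genes was not tested. In all, 13 of the 84 genes stood on one of the 22 pathway lists and 71 on none.

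Genes of the cytoskeleton, muscle and caveolae numbered 13, with a median day 7 ratio of 1.59. None was called at day 14 by edgeR (2.45% of genes tested). At an unadjusted p under 0.05, 2 were lower (Csrp2 and Tubb6, with 7.97% of genes tested). DESeq2 called 1 lower (Csrp2, with 2.59% of its genes). Tuba1a, an alpha-tubulin typical of growing neurons and dividing cells, had 81.1, 147 and 113 CPM in controls, 176, 225 and 279 CPM at day 7, 64.5, 96.1 and 99.1 CPM at day 14 and 52.4, 70.6 and 33.4 CPM at day 28. Tubb6, a beta-tubulin, had 88.6, 141 and 119.8 CPM in controls, 183, 194 and 227 CPM at day 7, 58.3, 79.9 and 87.3 CPM at day 14 and 62.9, 76.4 and 49.6 CPM at day 28. In both, day 28 libraries lay under all controls, and day 14 libraries did so for Tubb6 alone. Map1a, which binds microtubules, had 149, 143 and 136 CPM in controls, 226, 224 and 229 CPM at day 7, 134, 131 and 125 CPM at day 14 and 122, 108 and 62.6 CPM at day 28, with little spread within groups until day 28.

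Csrp2, a LIM-domain protein of smooth muscle, had 22.4, 18.9 and 27.2 CPM in controls, 55.4, 52.9 and 45.7 CPM at day 7, 12.7, 15.9 and 15.4 CPM at day 14 and 19, 16 and 12.7 CPM at day 28. All its later libraries except 1 at day 28 were below the lowest control, and the day 14 log2 fold change was -0.64 ± 0.18 (SE, n = 3 each, edgeR adjusted p = 0.086). Hspb1, the small heat shock protein Hsp27 that stabilizes actin, had 450.2, 469.8 and 390.5 CPM in controls, 576, 717 and 981 CPM at day 7, 305, 634 and 488 CPM at day 14 and 338, 299.8 and 229 CPM at day 28. At day 14 its libraries spread across the controls. Hspb7, a small heat shock protein of muscle, had 72.9, 71.7 and 73 CPM in controls, 104, 93.1 and 138 CPM at day 7, 49.6, 102 and 55.1 CPM at day 14 and 64.8, 34.2 and 26.1 CPM at day 28, and 1 of its day 28 libraries lay close to the controls. Ehd2, an ATPase at the neck of caveolae, had 209, 253 and 233 CPM in controls, 372, 338 and 361 CPM at day 7, 189.5, 244 and 187 CPM at day 14 and 189.7, 184 and 113 CPM at day 28. Day 14 of Hspb7 and Ehd2 overlapped the controls, and all day 28 libraries of both were below them. Cav3, the caveolin of muscle, was near the 1 CPM limit at 1.06, 2.03 and 1.21 CPM in controls, 2.02, 2.52 and 3.84 CPM at day 7, 0.343, 2.06 and 0.706 CPM at day 14 and 1.46, 0.659 and 0.915 CPM at day 28. Capn6, a calpain without protease activity that binds microtubules, reached 2.94 times control at day 7, with 58.3, 25.5 and 22.2 CPM there and 10.7, 10.2 and 15.1 CPM in controls. Ankrd1, a nuclear and sarcomeric protein that responds to stretch in muscle, had 1.79, 2.74 and 2.52 CPM in controls, 3.82, 3.27 and 3.19 CPM at day 7, 1.71, 1.64 and 1.45 CPM at day 14 and 1.69, 1.42 and 0.847 CPM at day 28. Of these 3, Capn6 and Ankrd1 had day 7 libraries that were all above their controls, and those of Cav3 overlapped them at the lower end.

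Smooth muscle itself was measured on a separate list. Of 28 smooth muscle genes 1 rose at day 14 (Itga8) and 0 fell, by edgeR and by DESeq2, with 3 higher and 1 lower at an unadjusted p under 0.05. Over all genes tested 1.45% rose and 0.995% fell by edgeR, and 7.97% were lower at an unadjusted p under 0.05. Acta2, Cnn1 and Des are on the list but were left out of the next counts, since the rule dropped them by name. Of the 25 other listed genes at 1 CPM or more in controls, 16 were at or below 0.71 times control at day 28 (12.2% of the 13353 genes). At day 7, 6 of these 25 had been at least 1.4 times control (15.5%). The dropped genes were also higher at day 7. Mean Acta2 was 2275 CPM in controls, 3608 CPM at day 7 and 1692 CPM at day 28. Mean Cnn1 was 1521, 3026 and 1193 CPM in the same order, and mean Des 2314, 4561 and 1828 CPM. None of the 84 genes was on that list, but for Acta2, Cnn1 and Des this was fixed in advance by the dropped names. Of 34 actin and focal adhesion genes, which include Csrp2, 0 rose and 0 fell at day 14 by edgeR (2.45% of genes tested were called). At an unadjusted p under 0.05, 7 were higher and 2 lower (7.97% of genes tested were lower). DESeq2 called 4 higher and 1 lower (2.59% of its genes were lower).

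Regulators of transcription and RNA numbered 10. At day 14, 0 were called by edgeR (2.45% of genes tested) or DESeq2 (2.59% of its genes were lower). At an unadjusted p under 0.05, 2 were lower (Ndn and Prrx2, with 7.97% of genes tested). Wt1, a zinc finger factor of mesothelium and of urogenital mesenchyme, had 24.5, 18.1 and 23.4 CPM in controls, 26.7, 61.4 and 36.2 CPM at day 7, 4.53, 32.6 and 36.4 CPM at day 14 and 6.13, 15.7 and 4.74 CPM at day 28. Day 14 held 1 library far below and 2 above all controls, and its log2 fold change of 0.17 ± 0.63 (SE, n = 3 each, edgeR adjusted p = 0.927) was within that spread. Wt1 is also a mesothelial marker, and the other markers of that list did not all follow it between groups. Mean Upk3b was 76.4 CPM in controls and 42.1 CPM at day 7. Msln had 36.2, 122 and 267 CPM at day 28, highest in replicate 3, where Wt1 was lowest. Lrrn4, a mesothelial surface protein, had 106, 63.6 and 79.3 CPM in controls, 42.6, 169 and 36.8 CPM at day 7, 10.9, 114 and 77.1 CPM at day 14 and 16.2, 39.4 and 16 CPM at day 28, and Rspo1, a secreted Wnt agonist, had 11.6, 9.17 and 13.7 CPM in controls, 11.8, 19.2 and 7.48 CPM at day 7, 2.02, 19.2 and 13.2 CPM at day 14 and 4.54, 12.9 and 5.39 CPM at day 28. In Wt1, Lrrn4 and Rspo1 day 14 replicate 1 was the lowest of its group and day 7 replicate 2 the highest. Msln, Upk3b and Bnc1 shared this, while Krt19 was lowest in day 14 replicate 1 but highest in day 7 replicate 3. The summed level of all 7 mesothelial markers, none at 0 in every library, was 817 to 835 CPM in controls, 547 to 963 at day 7, 550.4 to 1347 at day 14 and 1027 to 1459 at day 28. That sum is led by Krt19, which urothelium also expresses. The part of mesothelial content in the Wt1 values was not tested.

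Gata4, a zinc finger factor of heart and of gonadal and gut mesenchyme, had 2.43, 2.33 and 3.76 CPM in controls, 2.78, 7.42 and 2.24 CPM at day 7, 0.495, 2.65 and 2.54 CPM at day 14 and 0.373, 1.63 and 1.05 CPM at day 28. Its day 7 mean rested on replicate 2, and as with Wt1 its lowest day 14 library was replicate 1. Prrx2, a homeobox factor of mesenchyme, had 8.66, 9.58 and 11.4 CPM in controls, 15.5, 19.4 and 13.1 CPM at day 7, 5.82, 8.3 and 4.7 CPM at day 14 and 6, 7.97 and 4.51 CPM at day 28, with day 14 libraries all below the controls. Its reads overlap Nup214 on the same strand, which held more counts, and its values are uncertain. Ndn, or necdin, an imprinted growth suppressor, had 10.2, 13.7 and 14 CPM in controls, 24.8, 16.9 and 17.1 CPM at day 7, 10.5, 8.16 and 8.93 CPM at day 14 and 5.15, 5.82 and 4.78 CPM at day 28. All its day 7 libraries were above its controls and all its day 28 libraries below them. Arnt2, a bHLH-PAS partner protein of the nervous system, had 4.51, 3.07 and 4.13 CPM in controls, 6.36, 14.6 and 7.55 CPM at day 7, 0.799, 3.28 and 1.87 CPM at day 14 and 1.46, 3.54 and 1.46 CPM at day 28. Scx, the tendon factor scleraxis, had 2.05, 2.29 and 4.65 CPM at day 7 and 1.79, 1.04 and 1.1 in controls, and is uncertain because the overlapping Bop1 held more counts. Myrf, a membrane-bound transcription factor best known from myelin, had 46.2, 49.1 and 61.7 CPM in controls, 53.5, 109 and 71.1 CPM at day 7, 23.5, 58.1 and 44.4 CPM at day 14 and 27.6, 32 and 20.4 CPM at day 28. Arnt2 and Myrf were both highest in day 7 replicate 2. Of 56 mesenchymal transcription factors on the list, Gata4 and Scx among them, 0 rose and 0 fell at day 14 by edgeR (2.45% of genes tested were called). At an unadjusted p under 0.05, 2 were higher and 11 lower (7.97% of genes tested were lower). DESeq2 called 0 higher and 4 lower (2.59% of its genes were lower).

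**Figure D4:**
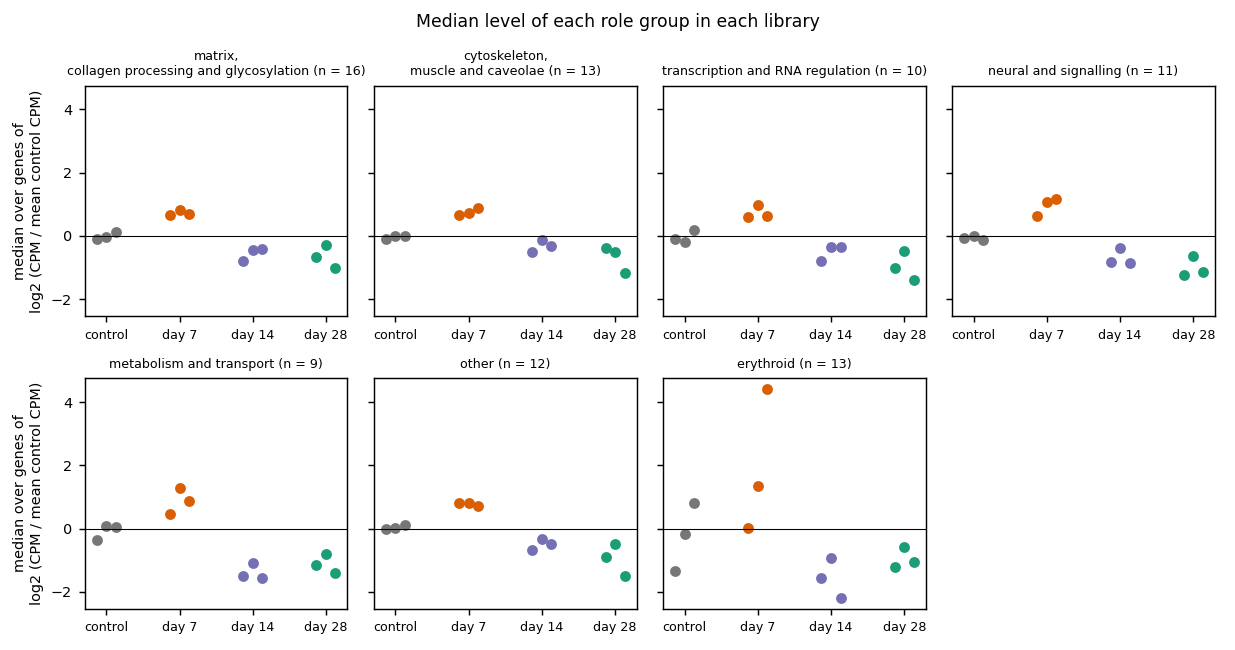
Each point is 1 library, and the vertical axis is the median over the genes of a role group of log2 CPM over the control mean. Day 14 and day 28 points lie below 0 in all 7 groups, and the erythroid group has the widest spread at day 7, between 0.01 and 4.41.

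Metabolic and transport genes numbered 9. Apart from the 2 carriers and Ndufa4l2 described above, Slc2a10, the glucose transporter GLUT10, had 6.05, 7.8 and 8.77 CPM in controls, 18.6, 14.3 and 12.8 CPM at day 7, 9.02, 5.9 and 5.44 CPM at day 14 and 4, 6.73 and 5.12 CPM at day 28. Aldh1l2, a mitochondrial folate enzyme, had 15.2, 23.1 and 25.3 CPM in controls, 25.9, 63 and 52.7 CPM at day 7, 9.67, 13.9 and 21.8 CPM at day 14 and 12.2, 19.5 and 8.03 CPM at day 28. Both overlapped the controls at day 14. Crym, which binds thyroid hormone, had 2.15, 3.4 and 1.02 CPM in controls, 2.99, 5.3 and 2.86 CPM at day 7, 0.913, 1.95 and 0.0353 CPM at day 14 and 0.746, 2.18 and 1.32 CPM at day 28, and it overlaps Thumpd1 on the same strand, which held more counts, so its values are uncertain. Alox15, an arachidonate lipoxygenase of reticulocytes, eosinophils and macrophages, had the largest day 7 ratio of all 84 genes at 29.6. Alox15 had 8.9, 10.8 and 14.4 CPM in controls, 8.38, 98.5 and 899 CPM at day 7, 4.03, 8.48 and 3.85 CPM at day 14 and 1.93, 5.13 and 4.37 CPM at day 28. Day 7 replicate 1 was below the lowest control, and replicate 3 stood highest, as it did for haemoglobin.

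Genes known from nerve cells or signalling numbered 11. At day 14, 0 were called by edgeR (2.45% of genes tested) or DESeq2 (2.59% of its genes were lower). At an unadjusted p under 0.05, 4 were lower (7.97% of genes tested). Nrep, a small protein of regenerating neurons and myofibroblasts also called P311, was the most abundant by CPM, with 60.4, 63.4 and 66.5 CPM in controls, 88.3, 132 and 76.2 CPM at day 7, 36.1, 51.1 and 29.8 CPM at day 14 and 36.5, 53 and 29 CPM at day 28. Il1rl2, the receptor of interleukin-36, had 5.35, 7.54 and 5.37 CPM in controls, 8.62, 17.2 and 22 CPM at day 7, 4.41, 7.78 and 3.35 CPM at day 14 and 3.83, 4.68 and 3.22 CPM at day 28. Its day 7 libraries were all above its controls and its day 14 libraries were spread over them. Grin2d, a subunit of NMDA glutamate receptors, had 3.94, 5.4 and 5.96 CPM in controls, 9.77, 12.1 and 9.89 CPM at day 7, 2.59, 3.91 and 4.13 CPM at day 14 and 3.52, 3.92 and 2.95 CPM at day 28. Disp2, of the Dispatched family, had 5.28, 4.92 and 2.16 CPM in controls, 8.93, 7.98 and 7.22 CPM at day 7, 2.06, 2.9 and 1.27 CPM at day 14 and 1.15, 2.88 and 1.69 CPM at day 28, and Mdga1, a synaptic adhesion regulator, had 1.55, 1.11 and 1.17 CPM in controls, 3.13, 3.5 and 3.94 CPM at day 7, 1.1, 1.05 and 1.55 CPM at day 14 and 0.542, 1.18 and 0.644 CPM at day 28. Day 7 libraries of Grin2d, Disp2 and Mdga1 were all above their controls, and day 14 libraries overlapped the controls in each. Arc, an immediate early gene of neurons, met the rule through 1 library. It had 4.03, 4.48 and 21.4 CPM at day 7 and 5.81, 6.32 and 6.54 CPM in controls, while day 28 libraries held 1.73, 2.53 and 1.08 CPM. Kl, or klotho, a coreceptor of FGF23, had 2.89, 0.703 and 2.56 CPM in controls, 5.15, 3.04 and 2.41 CPM at day 7, 0.951, 3 and 0.494 CPM at day 14 and 1.46, 1.07 and 0.576 CPM at day 28, and it overlapped its controls at every day. Of the 22 neurotrophin and GDNF family genes tested, none is among the 84. At day 14, 1 rose (1.45% of genes tested) and 3 fell (0.995%) by edgeR. At an unadjusted p under 0.05, 3 were higher and 7 lower, and DESeq2 called 2 higher and 4 lower.

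Of the 12 remaining genes, Armcx2 and Armcx4 are neighbours on the X chromosome that encode armadillo-repeat proteins. Armcx2 had 20.9, 20.8 and 23.7 CPM in controls, 36.8, 46.5 and 41 CPM at day 7, 11.4, 16.4 and 13.8 CPM at day 14 and 12.6, 16.1 and 10.5 CPM at day 28, and Armcx4 had 17.8, 20.6 and 22.4 CPM in controls, 26.6, 37.1 and 33.6 CPM at day 7, 12.4, 16.5 and 11.7 CPM at day 14 and 10.7, 14.2 and 6.74 CPM at day 28. Both were separated from control in every library of every day, above it at day 7 and below it later. Tmem255a, a membrane protein, had 1.97, 0.961 and 1.97 CPM in controls, 4.66, 4.81 and 6.18 CPM at day 7, 0.875, 0.454 and 0.212 CPM at day 14 and 0.576, 1.39 and 0.508 CPM at day 28, and its day 14 log2 fold change of -1.69 ± 0.52 (SE, n = 3 each, edgeR adjusted p = 0.112) did not pass, while DESeq2 called both Tmem255a and Sapcd1 lower. Fgg, the fibrinogen gamma chain made in liver, had 11.8, 1.85 and 1.53 CPM in controls, 4.35, 35.3 and 6.63 CPM at day 7, 0.304, 3 and 10.3 CPM at day 14 and 2.34, 3.19 and 1.08 CPM at day 28. Its libraries differed widely within each group, and the 4 groups overlapped apart from day 7 and day 28, whose separation the rule required.

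The erythroid group held 13 genes and had the highest median day 7 ratio, 8.29. Its libraries also spread widely, with a median coefficient of variation of 68.9% over the controls, 132% for day 7, 40.7% for day 14 and 21.4% for day 28. This spread was the widest of the 7 role groups in controls and at day 7, narrowly the widest at day 14 (next 39.8%, transcription and RNA regulation), and the smallest at day 28. Together these genes took 0.0670%, 0.135% and 0.296% of counts in the 3 controls, 0.163%, 0.390% and 3.02% at day 7, 0.0626%, 0.0815% and 0.0365% at day 14, and 0.0735%, 0.101% and 0.0805% at day 28. Day 7 replicate 3 alone was about 10 times the highest control, while day 7 replicate 1 lay inside the control range. At day 14, 0 were called by edgeR (2.45% of genes tested) or DESeq2 (2.59% of its genes were lower). None had an unadjusted p under 0.05 (17.7% of genes tested). Several of the 13 are near-identical globin copies, so the genes are not all separate observations. The log2 fold change was negative for 13 of 13 (49.6% of genes tested), with a median of -1.40. That median rested partly on control replicate 3: it was -0.71 without it, with 12 of 13 negative and values from -1.20 to 0.56, and lay between -1.88 and -1.07 with any other library left out. Without control replicate 3, 10 of the 13 also no longer met the rule, and without day 7 replicate 3, 12 of the 13 still did.

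The erythroid genes covered globin chains, haem synthesis and the red cell membrane. Hba1, an alpha-globin, had 285, 599 and 1272 CPM in controls, 715, 1641 and 12504 CPM at day 7, 282, 377 and 156 CPM at day 14 and 322, 429.9 and 362 CPM at day 28. Hbb, the beta-globin, had 134, 197 and 656 CPM in controls, 281, 649 and 6319 CPM at day 7, 113, 143 and 66.6 CPM at day 14 and 135, 183 and 139 CPM at day 28. Hba2, another alpha-globin, had 159.7, 377 and 740.1 CPM in controls, 394, 1093 and 8336 CPM at day 7, 143, 191 and 88.7 CPM at day 14 and 184, 252 and 202 CPM at day 28. The same library order, replicate 3 over 2 over 1 in controls and at day 7, ran through all 3 of these genes. Reads of 50 bases cannot be placed between near-identical globin copies, so the split among Hba1, Hba2, Hba-a1, Hbb, Hbb-b1 and the sixth globin gene, which has a LOC ID, is uncertain. Alas2, the first enzyme of haem synthesis in red cell precursors, had 3.66, 9.06 and 23.3 CPM in controls, 12.1, 30.7 and 256 CPM at day 7, 3.73, 7.64 and 2.22 CPM at day 14 and 4.71, 5.48 and 5.12 CPM at day 28. Slc4a1, the band 3 anion exchanger of the red cell membrane, had 1.02, 3.51 and 7.82 CPM in controls, 5.63, 25.6 and 269 CPM at day 7, 0.837, 1.88 and 0.459 CPM at day 14 and 0.915, 1.01 and 2.2 CPM at day 28. In both, day 7 replicate 3 was at least 10 times the highest control and day 28 overlapped the controls. Epb42, a protein that anchors band 3 in the membrane, had 1.87, 1.96 and 3.33 CPM in controls, 1.91, 2.49 and 17 CPM at day 7, 1.52, 0.802 and 1.17 CPM at day 14 and 0.474, 0.728 and 0.678 CPM at day 28. Hemgn, a nuclear protein of red cell precursors, had 0.634, 1.48 and 2.01 CPM in controls, 1.08, 5.82 and 44.5 CPM at day 7, 0.114, 1.85 and 0.318 CPM at day 14 and 0.169, 1.07 and 0.542 CPM at day 28. Add2, a beta-adducin of the membrane skeleton, had 0.422, 0.444 and 2.34 CPM in controls, 1.46, 3.83 and 37.9 CPM at day 7, 0.304, 0.663 and 0.212 CPM at day 14 and 0.508, 1.39 and 0.237 CPM at day 28. These 3 genes had day 7 replicate 1 inside their control range. Lgals5, a rat galectin of reticulocytes, had 0.493, 1.44 and 2.96 CPM in controls, 2.92, 4.68 and 35.2 CPM at day 7, 0.343, 2.62 and 1.27 CPM at day 14 and 0.61, 1.53 and 0.983 CPM at day 28, and its day 14 change of -0.19 ± 0.99 on the log2 scale (SE, n = 3 each, edgeR adjusted p = 0.948) turned positive without day 14 replicate 1 or control replicate 3, at 0.28 and 0.56. Smim1, of the Vel blood group, had 13.2, 12.5 and 14.5 CPM in controls, 19.4, 33.4 and 18.4 CPM at day 7, 9.1, 15.3 and 10.9 CPM at day 14 and 9.86, 11.2 and 6.85 CPM at day 28, was highest in replicate 2 at day 7 rather than replicate 3, and is uncertain because the overlapping Lrrc47 held more counts.

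Promoters of the erythroid genes are shown because these genes moved together from library to library. RefSeq sequences of the assembly GRCr8, 250 bases before and 50 after the annotated start, were matched by gene ID for 12 of the 13 erythroid genes. The motifs searched, on both strands, were the CCAAT box (CCAAT), the TATA box (TATAAA) and a GATA site (AGATAA, added after the values had been seen). CCAAT was found in 9 of 12 (37.7% of all 27457 promoters of the same length), TATAAA in 5 of 12 (14.3% of all promoters) and AGATAA in 3 of 12 (11.3% of all promoters). All 5 with TATAAA were globin genes, as were those with CCAAT apart from Add2, Hemgn and Lgals5. Related globin promoters were thus counted more than once, and the difference from all promoters was not tested. Of the other motifs searched, an AP-1 site (TGANTCA) was in 1 of 12 (7.33% of all promoters), a TEAD site (GGAATG) in 3 (13.9%), a SMAD site (CAGACA) in 5 (20.8%), an E-box (CAGCTG) in 3 (15.1%), a GLI site (TGGGTGGTC) in 0 (0.379%) and the CArG box in 0 (1.64%). None of the marked motifs overlapped another in the promoters printed here. A match is a description of letters and not of a bound factor. In the sequences below, 5′ to 3′ on the gene's strand, capitals mark the CCAAT box, the TATA box and the GATA site, and a motif on the opposite strand shows as its reverse complement (ATTGG for CCAAT).
Hba1 (Hba-a1 in RefSeq, chr10:15842531-15842830, minus strand): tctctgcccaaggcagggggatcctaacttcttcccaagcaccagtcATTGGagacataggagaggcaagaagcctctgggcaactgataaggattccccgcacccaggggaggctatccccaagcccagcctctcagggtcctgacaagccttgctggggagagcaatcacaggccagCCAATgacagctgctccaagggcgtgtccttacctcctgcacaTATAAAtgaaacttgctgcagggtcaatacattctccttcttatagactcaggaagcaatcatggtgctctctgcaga
Hba2 (Hba-a2 in RefSeq, chr10:15829089-15829388, minus strand): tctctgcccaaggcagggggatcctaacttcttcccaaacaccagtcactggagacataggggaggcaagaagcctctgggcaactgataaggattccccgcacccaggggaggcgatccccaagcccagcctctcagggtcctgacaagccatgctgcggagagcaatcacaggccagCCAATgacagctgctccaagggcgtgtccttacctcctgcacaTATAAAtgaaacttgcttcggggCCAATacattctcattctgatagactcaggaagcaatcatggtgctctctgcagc
Hbb (chr1:167663672-167663971, minus strand): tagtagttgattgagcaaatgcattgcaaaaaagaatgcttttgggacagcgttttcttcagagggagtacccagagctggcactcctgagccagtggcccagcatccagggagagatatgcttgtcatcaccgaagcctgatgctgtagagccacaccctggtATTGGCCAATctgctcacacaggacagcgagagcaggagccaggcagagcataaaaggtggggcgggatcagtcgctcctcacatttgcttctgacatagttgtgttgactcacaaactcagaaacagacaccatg
Alas2 (chrX:22895200-22895499, plus strand): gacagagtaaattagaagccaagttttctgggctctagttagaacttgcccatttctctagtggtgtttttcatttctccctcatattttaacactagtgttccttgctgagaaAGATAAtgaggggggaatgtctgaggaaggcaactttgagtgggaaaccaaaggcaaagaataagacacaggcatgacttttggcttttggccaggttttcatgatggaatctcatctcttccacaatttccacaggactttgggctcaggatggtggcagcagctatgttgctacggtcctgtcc
The 2 alpha-globin windows were identical at 288 of 300 positions (96.0%), each with a CCAAT box 71 bases and a TATA box 28 bases before the annotated start. Hbb held CCAAT on both strands side by side, 86 and 81 bases before the start, and Alas2 an AGATAA 136 bases before it. Over all 84 genes, 63 (75.0%) had a promoter in the table, fewer than 80%, so a comparison of motifs over the whole set was void and is not given.

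Level of the set within each group varied with the library. At day 28 replicate 2 was the highest of its group for 64 of the 84 genes (76.2%), against 30.0% of all genes tested, and replicate 3 for 4 (4.76%), against 42.9%. At day 14 replicate 2 was the highest for 46 (54.8%), against 28.5%, and in controls replicate 3 for 49 (58.3%), against 33.6%. The 71 genes outside the erythroid group summed to 6848, 6007 and 6937 CPM in controls, 11186, 12798 and 12426 at day 7, 3405, 5581 and 5134 at day 14, and 3938, 5421 and 2768 at day 28. Day 28 replicate 3 was thus lowest of all libraries.

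Cell type markers moved between the same groups and libraries. The 8 fibroblast markers, all detected, summed to 20342 to 26071 CPM in controls, 32339 to 38919 CPM at day 7, 10099 to 14323 CPM at day 14 and 8397 to 17882 at day 28. That sum is led by Col1a1 and Col3a1, which met the numerical conditions of the rule themselves. The 5 markers that are not collagens (Pdgfra, Dpt, Lum, Dcn and Pi16), a split made after the values were seen, summed to 3174 to 4234 CPM in controls, 1804 to 3423 at day 7, 1964 to 3083 at day 14 and 2044 to 2843 at day 28. At day 7 the sum of all 8 was thus above control in every library, while that of the 5 overlapped control through replicate 1 alone. The mean sum of the 5 was 3574 CPM in controls and 2431 CPM at day 7. Mean Dcn was 2304 CPM in controls and 1133 CPM at day 7, Lum 558 and 482, Dpt 404 and 349, and Pdgfra 211 and 239. Within the 5, Pi16 had 94.2, 81.3 and 119 CPM in controls, 310.3, 184 and 189 CPM at day 7, 164, 273 and 315 CPM at day 14 and 188, 419.6 and 120.1 CPM at day 28, and all its day 7 libraries lay above control. The 9 smooth muscle markers summed to 23719.6 to 26172 CPM in controls, 23947 to 39756 at day 7, 22183 to 30529 at day 14 and 10641 to 22299 at day 28, with day 28 replicate 3 lowest here too. They did not move together at day 7. Mean Actg2 was 3586 CPM in controls and 8794 CPM at day 7, and Acta2, Cnn1 and Des were also higher. Mean Myh11 was 10249 and 5649 CPM, Smtn, Lmod1 and Myocd were also lower, and Tagln was near its control mean. The 10 endothelial markers summed to 273 to 302 CPM in controls, 705 to 849.9 at day 7, 325 to 497 at day 14 and 426 to 662 at day 28. Macrophage markers, 10 of 10 detected, summed to 443 to 527 CPM in controls, 1229 to 1620.02 at day 7, 627 to 990.1 at day 14 and 1327 to 1795 at day 28. Urothelial markers, 15 of 16 in the table, summed to 9953 to 10518 CPM in controls, 6033 to 7138 at day 7, 9485 to 10959 at day 14 and 8245 to 11083 at day 28. No marker of these lists was at 0 in every library. The part of such shifts in the levels of the 84 genes was not tested.

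**Figure D5:**
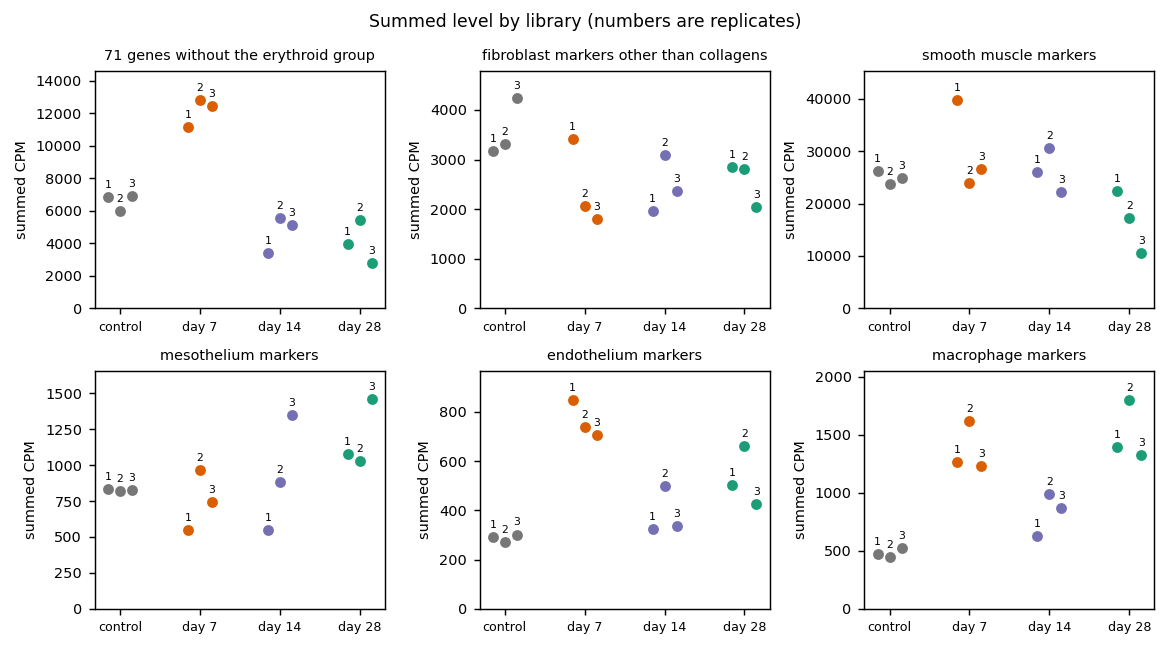
Points are summed CPM in single libraries, numbered by replicate, for the 71 genes outside the erythroid group and for 5 marker lists, on axes from 0. The gene set is highest at day 7 and lowest at day 28 replicate 3, where smooth muscle markers are lowest as well.

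The same rule applied to genes that are not protein-coding found 5 of 1136 at 1 CPM or more in controls. Among them was a long non-coding RNA on chromosome 6 that RefSeq names Meg3, an imprinted gene transcribed from the maternal copy, singled out after its values were seen. It had 16.6, 18.9 and 20.5 CPM in controls, 62.9, 66.1 and 77.1 CPM at day 7, 8.11, 13.5 and 14 CPM at day 14 and 8.88, 11 and 6.98 CPM at day 28. Day 7 libraries of Meg3 were all at least 3 times the highest control, and all later libraries were below the lowest control. Its day 14 log2 fold change was -0.65 ± 0.22 (SE, n = 3 each, edgeR adjusted p = 0.152), which did not pass.

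The 84 genes lay on 19 chromosomes, with 16 on chromosome 1, 11 on chromosome 10 and 9 on chromosome 7 in the build rn6. Pairs of the set within 250000 bases of each other were found in the alpha-globin cluster, in the beta-globin cluster, for Armcx2 and Armcx4, and for Chst10 and Lonrf2, which are 22480 bases apart on chromosome 9 with no protein-coding gene between them. Lonrf2, a RING-finger protein, had 6.58, 6.29 and 6.5 CPM in controls, 12.8, 10.6 and 9.24 CPM at day 7, 4.53, 5.9 and 4.73 CPM at day 14 and 4.34, 4.68 and 3.02 CPM at day 28. Its libraries separated from control at every day, as those of Chst10 did at day 7 alone. Another annotated gene overlapped 17 of the 84, on the same strand for 6, and no source used here says whether reads were counted by strand. The other gene held more counts in 5 cases, which are Crym, H2afy2, Prrx2, Scx and Smim1. Membership itself was most stable for 21 genes that met the rule with any 1 of the 9 control, day 7 and day 28 libraries left out. They included Ccdc80, Nid2, Tuba1a, Tubb6, Wt1, Prrx2, Arnt2, Slc29a1, Ndufa4l2, Pycr1, Alox15, Slc4a1, Hemgn, Armcx2, Armcx4 and Lonrf2, which contain 3 of the 5 genes that fell at day 14.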

How the data were processed

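The authors deposited a table of 40154 rat genes with read counts and TPM for 12 libraries, per the file headers. HISAT2 2.1.0, HTSeq 0.11.2, bcl2fastq and the build rn6 are named in the submitters' processing notes. Counts were used for the rule and the tests, and the deposited TPM only to compare levels between genes. Per the file headers the gene type and coordinates came with the table. Other deposited tables were not used here. The members and lists were chosen with earlier results of these data known, and the 7 role groups were assigned by hand after the names were seen.

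Tests used edgeR 4.0.16 (R 4.3.3) on genes kept by filterByExpr, with a minimum count of 10 and a minimum total of 15. TMM scaling and 1 quasi-likelihood model over all 12 libraries were used, with Benjamini-Hochberg adjustment over 17687 genes and calls at an adjusted p under 0.05. Each SE is approximate, taken as the size of the log2 change over the root of its F statistic. DESeq2 1.42.0, other scalings, filters, a replicate block and leaving out each library were tried. The code was tested on simulated data. Named genes, bare LOC, RGD or clone IDs left out, were the 12 members with the largest day 7 to day 28 ratio, the 10 most abundant, those called at day 14, up to 4 per pathway list and those nearest the thresholds. Others were named after their values were seen. Depth was 26275314 to 30747936 counts per library.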

Additional observations from a re-analysis of the deposited data

How the results depend on the processing

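The rule gave 84 genes, 113 on TMM-scaled or DESeq2-scaled counts, 56 with thresholds of 1.5 and 0.67, 57 with a control minimum of 5 CPM, 100 with one of 0.5 CPM and 91 with no names dropped. Leaving out each library gave 64 to 143, the highest without day 28 replicate 2. At day 14 against control, 5 of the 84 were lower, 0 to 3 with each library left out, 12 by DESeq2, 6 without an expression filter, and 3 of the 39 genes that met the rule with any 1 control left out, an alternative chosen after seeing the data. Over all genes 176 were lower and 257 higher. These were 502 and 805 by DESeq2, 412 higher without a filter, 340 lower with day 14 and control libraries alone, and 10 to 117 lower and 6 to 387 higher with each library left out. None of the 84 was higher under any of these, by edgeR or DESeq2. The median log2 fold change of the 84 lay between -0.65 and -0.39 throughout, and was -0.46 over the 71 genes outside the erythroid group, also chosen after seeing the data. Of 407 values of named genes under alternatives, 369 kept their direction and side of the threshold, 27 lost the call, 4 gained it and 7 changed sign. The 7 were Chst10 (0.067 without control replicate 3), Hspb1 (-0.14 without day 14 replicate 2, up to 0.38), Lgals5 (0.28 without day 14 replicate 1 and 0.56 without control replicate 3, down to -0.99) and Timp3 (0.15 without day 14 replicate 1, 0.052 without control replicate 2 and 0.096 without control replicate 3, down to -0.19), all uncalled. The cause was not tested. Replicate numbers did not pair the libraries: deviations of same-numbered day 14 and control libraries correlated at 0.04, -0.01 and 0.01 across genes. With the replicate block 6 of the 84 were lower, and 186 lower and 274 higher over all genes, with a median of -0.56, and Slc38a5 had an adjusted p of 0.0575. Genes near 1 CPM rest on few counts per library, which limits their precision.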
